A study of Mus musculus with 8 samples.

Results

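The genes described here encode 10 amino acid transporter proteins of the plasma membrane, namely Slc7a5, Slc3a2, Slc7a1, Slc7a3, Slc7a11, Slc1a4, Slc1a5, Slc38a1, Slc38a2 and Slc6a9. They were picked by symbol in the array annotation, are 10 of 15096 named genes on the array, and were measured by 1 probe each. The gene identifiers paired with these probes are 20539 for Slc7a5, 17254 for Slc3a2, 11987 for Slc7a1, 11989 for Slc7a3, 26570 for Slc7a11, 55963 for Slc1a4, 20514 for Slc1a5, 105727 for Slc38a1, 67760 for Slc38a2 and 14664 for Slc6a9. RNA came from CTL-EN, a mouse T cell line, made to express the beta common chain of the human GM-CSF receptor, either wild type or with glycine in place of a serine (Ser585Gly). All cells were starved of cytokine for 12 h in 0.5% serum, which is the 0 h condition. Treated cells then received 50 ng/mL of human GM-CSF, and their RNA was taken after 12 h. Each of 8 spotted arrays compared RNA of 2 conditions in separate dyes, and together they closed a ring of 4 sides: 12 h over 0 h in wild type, 12 h over 0 h in Ser585Gly, Ser585Gly over wild type at 0 h, and Ser585Gly over wild type at 12 h. Each side was hybridised with both dye orientations, with the numerator in Cy5 on replicate 1 and in Cy3 on replicate 2. The labels name neither clones nor separate cultures, and the same RNA served a companion series, so the p-values measure only the spread between hybridisations, which may be technical. No array held cells kept for the same 12 h without GM-CSF, so an effect of the cytokine and one of longer culture cannot be told apart. The human receptor chain itself has no probe here.

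Amino acids enter cells through carriers with overlapping substrates. Slc7a5 (LAT1) is the light chain of a heterodimer that brings in leucine and other large neutral amino acids in exchange for glutamine, and Slc3a2 (the CD98 heavy chain) is the glycoprotein that carries it, and also Slc7a11, to the surface. Activated T cells are known to depend on such uptake, since leucine and arginine feed the mTORC1 kinase, and the transcription factor ATF4 is known to raise many of these carriers when amino acids run short.

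Dye-swap arrays, turned to 1 direction, correlated across probes at 0.515 and 0.509 for the time comparisons in wild type and Ser585Gly but only at 0.124 and 0.218 for the mutation at 0 h and 12 h. Median foreground intensities per array ranged from 631 to 946 for Cy5 and from 795 to 1105 for Cy3. Of 15 measured T cell markers 13 were brighter than wells named empty, at brightness percentiles of 69 to 100 among probes, and Cd4 and Gzmb were not. All 20 measured markers of myeloid, B, erythroid, mast and fibroblast cells were also brighter than those wells, at percentiles of 8.55 to 87.7. Brightness differs between probes for reasons other than RNA level, so these values do not settle the cell type. Of those only Hba-a1, an erythroid globin, passed the test with time, at −0.45 in wild type and −0.49 in Ser585Gly, and of the T cell markers Cd3e (−0.84 and −0.90) and Cd3g (−0.71 and −0.72) fell. Lat, an adaptor of the T cell receptor, rose (0.49 in each), and the cytolytic protein gene Prf1 was at 0.55 with time in wild type and at −0.95 with the mutation at 12 h, past the threshold in both. Whether these shifts have a part in the results below was not tested. In bulk RNA, fewer cells of a type and less RNA per cell cannot be told apart.

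The transporters were as a group higher after 12 h with GM-CSF. In wild type 6 of 10 rose and none fell (limma, adjusted p under 0.05), where 9.51% of 21796 probes passed in either direction, 5.46% as higher and 4.04% as lower. In Ser585Gly the same 6 genes rose and none fell, where 10.5% of probes passed, 5.77% as higher and 4.73% as lower. They were Slc7a5, Slc3a2, Slc7a1, Slc1a5, Slc38a1 and Slc6a9. The 10 genes were chosen with earlier results of these data known, so these counts are not independent evidence of direction. The median log2 ratio over the 10 genes was 0.83 in wild type and 0.56 in Ser585Gly, while over all probes it was −0.01 and 0.01. The genes that did not pass were Slc7a3, Slc7a11, Slc1a4 and Slc38a2. Both arrays of the side lay above 0 for 8 of the 10 genes in wild type and for 9 in Ser585Gly, against 32.3% and 31.4% of all probes.

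The light chain Slc7a5 gave log2 ratios of 12 h over 0 h of 2.17 and 1.75 on the 2 wild-type arrays. The Ser585Gly arrays gave 2.13 and 1.90. All 4 values were far above 0, and the 2 populations overlapped. In the fit Slc7a5 rose by 1.98 ± 0.10 (SE, 8 arrays) in wild type, a 3.96-fold change (adjusted p = 0.000118), and by 1.99 ± 0.10 in Ser585Gly, a 3.98-fold change (adjusted p = 0.000148). By size of its log2 ratio it ranked 22 among 21796 probes in wild type and 12 in Ser585Gly.

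Its heavy-chain partner Slc3a2 gave log2 ratios of 1.60 and 1.58 on the wild-type arrays and 1.51 and 1.23 on the Ser585Gly arrays. Every array showed a rise, and both Ser585Gly values lay below both wild-type values. The fitted rise was 1.64 ± 0.10 in wild type (3.11-fold, adjusted p = 0.00012) and 1.32 ± 0.10 in Ser585Gly (2.50-fold, adjusted p = 0.000328). The difference between these responses, Ser585Gly minus wild type, was −0.32 ± 0.12 and did not pass (adjusted p = 0.674). Slc7a5 and Slc3a2 stayed past the threshold in both populations under all 18 alternative settings run, with adjusted p from 7.45e-06 to 0.00736 for Slc7a5 and from 2.44e-05 to 0.0148 for Slc3a2.

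Slc7a1 and Slc7a3 import arginine, lysine and ornithine. Slc7a1, the widely expressed member, gave log2 ratios of 0.87 and 1.27 in wild type and 1.19 and 0.78 in Ser585Gly. Each population had a higher and a lower array, and their ranges overlapped. The gene rose by 1.17 ± 0.14 in wild type (2.25-fold, adjusted p = 0.0022) and by 0.88 ± 0.14 in Ser585Gly (1.84-fold, adjusted p = 0.00702). Slc7a3, which is best known from brain, gave −0.01 and 0.03 in wild type and 0.20 and 0.10 in Ser585Gly. These values lay close to 0 on every array. The fit gave −0.11 ± 0.17 in wild type (adjusted p = 0.752) and 0.27 ± 0.17 in Ser585Gly (adjusted p = 0.392), with 95% intervals of −0.50 to 0.28 and −0.12 to 0.66. The interval of Slc7a1 in wild type was 0.85 to 1.50.

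Slc7a11 (xCT) is another light chain of Slc3a2 and takes up cystine in exchange for glutamate. It gave −0.50 and 0.38 on the wild-type arrays and −0.39 and −0.33 on the Ser585Gly arrays. The wild-type arrays disagreed in sign, and the Ser585Gly arrays were both below 0. Neither fitted value passed, at −0.06 ± 0.19 in wild type (adjusted p = 0.883) and −0.36 ± 0.19 in Ser585Gly (adjusted p = 0.316). Its probe was at brightness percentile 4.49, just above the limit set by wells named empty (mean log2 brightness of 7.47, against 7.24 for the 95th percentile of those wells). Its median foreground intensity was 213 in Cy5 and 413 in Cy3, where wells named empty had 150 and 282, so a change of Slc7a11 may not be detectable here. The other 9 probes lay at percentiles of 71.4 to 98.1, and their brightest reading was 34448 where the arrays reached 61874.

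**Figure D1:**
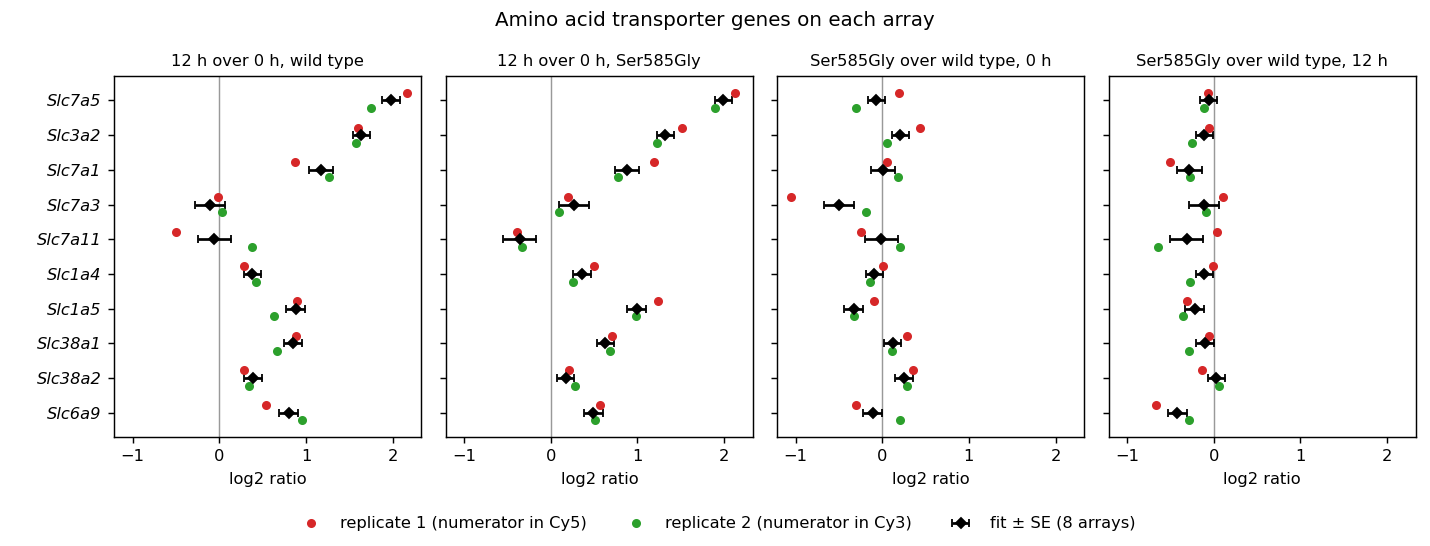
Log2 ratio (x axis) of each transporter gene on each array for the 4 sides of the square, with red points for replicate 1, green points for replicate 2 and black diamonds for the limma fit over 8 arrays ± SE. Slc7a5 and Slc3a2 lie at or above 1.23 on all 4 time arrays. On the mutation arrays both points lie above 0 for 4 genes and below 0 for 2 at 0 h, and below 0 for 7 at 12 h. Of all probes, 26.6% at 0 h and 26.8% at 12 h lie above 0 on both arrays.

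Slc1a5 (ASCT2) and Slc1a4 (ASCT1) exchange small neutral amino acids with sodium, and Slc1a5 is a major route for glutamine. Slc1a5 gave log2 ratios of 0.90 and 0.63 in wild type and 1.24 and 0.98 in Ser585Gly. Here both Ser585Gly arrays lay above both wild-type arrays. It rose by 0.88 ± 0.11 in wild type (1.84-fold, adjusted p = 0.00296) and by 0.99 ± 0.11 in Ser585Gly (1.99-fold, adjusted p = 0.00194), and the difference of 0.11 ± 0.13 did not pass (adjusted p = 0.84). Slc1a4 gave 0.28 and 0.42 in wild type and 0.50 and 0.26 in Ser585Gly. All of its 4 arrays were above 0 by a small amount. Its fitted values of 0.38 ± 0.10 and 0.36 ± 0.10 missed the threshold, with adjusted p = 0.0532 and 0.0605. Under the 18 alternatives Slc1a4 passed in 6 in wild type and in 5 in Ser585Gly.

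Slc38a1 (SNAT1) and Slc38a2 (SNAT2) couple the entry of glutamine, alanine and other small neutral amino acids to sodium. Slc38a1 gave 0.89 and 0.67 in wild type and 0.71 and 0.68 in Ser585Gly. The 4 arrays were alike and well above 0. It rose by 0.85 ± 0.10 in wild type (1.80-fold, adjusted p = 0.00194) and by 0.63 ± 0.10 in Ser585Gly (1.54-fold, adjusted p = 0.00658). Slc38a2, a carrier known to be induced by amino acid shortage, gave 0.28 and 0.34 in wild type and 0.21 and 0.28 in Ser585Gly. Every array was again above 0, by less than for Slc38a1. The fit put Slc38a2 at 0.39 ± 0.10 in wild type (adjusted p = 0.0515) and 0.17 ± 0.10 in Ser585Gly (adjusted p = 0.364). Its wild-type value passed in 7 of 18 alternatives.

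Slc6a9 (GlyT1) brings in glycine with sodium and chloride. On the wild-type arrays it gave 0.54 and 0.95, and on the Ser585Gly arrays 0.57 and 0.51. All arrays were above 0, with wild-type replicate 2 the highest. It rose by 0.80 ± 0.11 in wild type (1.74-fold, adjusted p = 0.00458) and by 0.49 ± 0.11 in Ser585Gly (1.40-fold, adjusted p = 0.0311). This was the least secure of the 6 calls, and in Ser585Gly it was kept in 11 of 18 alternatives.

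The calls in Ser585Gly leaned on its own pair of arrays, for all probes as well as for the transporters. Without replicate 1 of 12 h over 0 h in Ser585Gly only Slc7a5 and Slc3a2 passed there, and Slc7a1 (0.61, adjusted p = 0.0929), Slc1a5 (0.89, 0.0501), Slc38a1 (0.62, 0.101) and Slc6a9 (0.31, 0.344) did not. Without replicate 2 of that side 4 genes passed, and Slc38a1 (adjusted p = 0.0671) and Slc6a9 (0.0816) did not. Slc6a9 also missed the threshold without replicate 2 of 12 h over 0 h in wild type, with adjusted p = 0.0674 in wild type and 0.0736 in Ser585Gly, and without replicate 2 of Ser585Gly over wild type at 12 h, with adjusted p = 0.0677 in Ser585Gly. Without replicate 1 of Ser585Gly over wild type at 0 h Slc1a4 and Slc38a2 joined the calls in wild type (adjusted p = 0.0404 and 0.0333), and Slc1a4 did in Ser585Gly (0.0404). The 6 genes were above 0 in both populations under every setting.

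**Figure D2:**
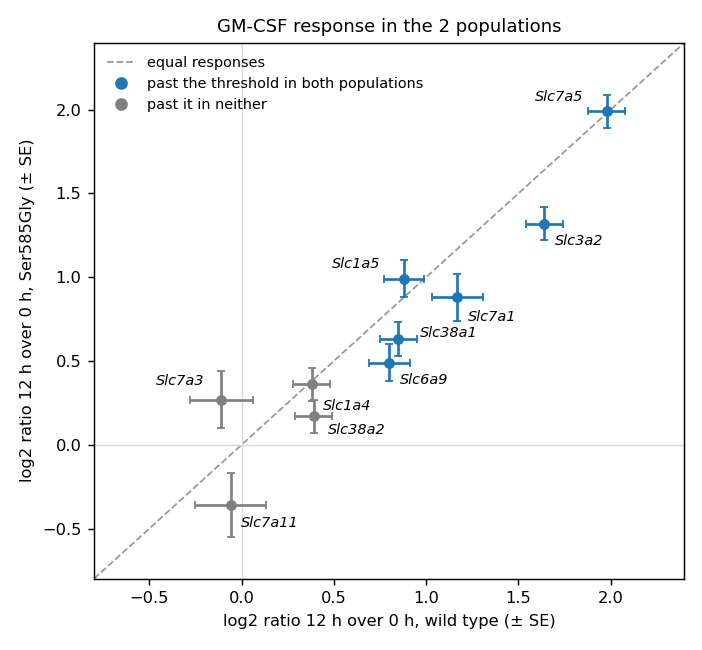
Fitted log2 ratio of 12 h over 0 h in Ser585Gly (y axis) against wild type (x axis) for the 10 transporter genes, with SE bars and a dashed line of equal responses; blue points passed in both populations. Slc7a5 sits on the line at 1.98 and 1.99, and Slc3a2 at 1.64 and 1.32 lies below it.

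Levels in single dyes were set out by condition, after loess and quantile scaling of average brightness between arrays, with 4 dye readings per condition. Slc7a5 had a mean log2 level of 12.57 ± 0.46 (SD, n = 4 readings) in wild type and 12.65 ± 0.30 in Ser585Gly at 0 h. At 12 h its means were 13.96 ± 1.03 in wild type and 14.05 ± 1.06 in Ser585Gly. The 0 h and 12 h readings overlapped, since replicate 2 of the mutation side at 12 h read 12.60 in wild type and 12.50 in Ser585Gly, below the highest 0 h readings of 13.02 and 13.04. Slc3a2 went from 11.56 ± 0.36 to 13.25 ± 0.82 in wild type and from 11.64 ± 0.54 to 13.01 ± 1.0 in Ser585Gly. Its wild-type readings did not overlap, at no more than 11.87 at 0 h and at least 12.16 at 12 h, while those of Ser585Gly did.

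Mean levels were higher at 12 h than at 0 h in both populations for the other genes too, with wide spread. For Slc7a11 in both populations and Slc7a3 in wild type the fitted ratios had the opposite sign, at −0.06 and −0.36 and at −0.11. Slc1a5 went from 10.03 ± 0.66 to 12.16 ± 0.97 in wild type and from 9.84 ± 0.95 to 12.09 ± 1.02 in Ser585Gly, a wider gap than the ratios on the time arrays. Slc6a9 went from 10.02 ± 0.46 to 11.41 ± 0.38 and from 10.17 ± 0.75 to 11.24 ± 0.41. For Slc38a1 the means were 12.27 ± 0.48 and 13.10 ± 0.83 in wild type and 12.50 ± 0.59 and 13.10 ± 0.93 in Ser585Gly, and for Slc7a1 they were 10.98 ± 1.03 and 11.64 ± 0.65, and 11.14 ± 1.02 and 11.50 ± 0.31. Slc1a4 went from 10.53 ± 0.31 to 11.12 ± 0.68 and from 10.60 ± 0.44 to 11.17 ± 0.51. Readings of Slc38a2 stayed between 11.07 and 12.23 and those of Slc7a3 between 9.23 and 11.15 over all conditions. Slc7a11 had 7.42 ± 0.27 and 7.79 ± 0.66 in wild type and 7.33 ± 0.44 and 7.41 ± 0.75 in Ser585Gly. In each of the 10 genes wild type and Ser585Gly at the same time overlapped. Readings of 1 condition could lie far apart between arrays, and the tests therefore rest on ratios within arrays.

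**Figure D3:**
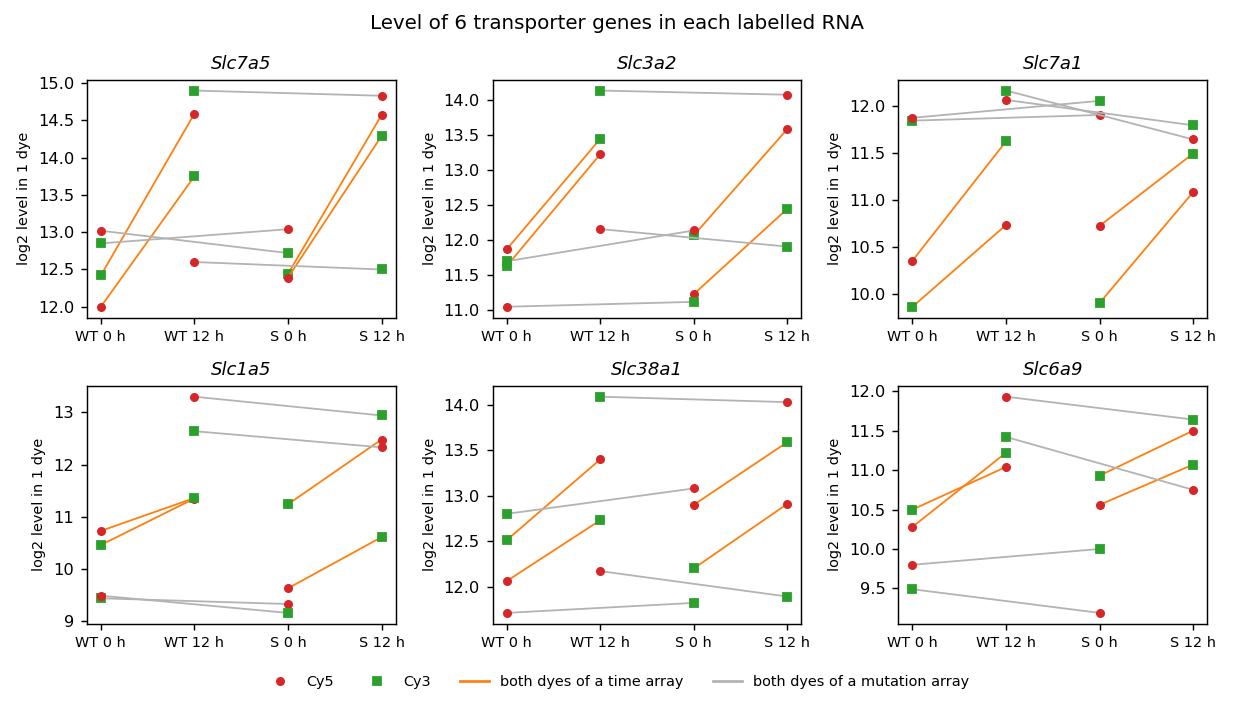
Log2 level in 1 dye (y axis) of the 6 genes that rose, by condition, where WT is wild type and S is Ser585Gly; red circles are Cy5, green squares are Cy3, and lines join the 2 dyes of 1 array, orange for time arrays and grey for mutation arrays. Every orange line climbs from 0 h to 12 h, while grey lines are mostly flatter and can lie far from each other, as for Slc7a5 at 12 h, where the mutation arrays read 14.90 and 12.60 in wild type.

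The mutation itself moved no transporter past the threshold. At 0 h 0 of 10 genes passed, where 4.06% of probes did, 2.06% as higher and 2% as lower (limma). At 12 h 0 of 10 passed, where 1.72% of probes did, 0.918% as higher and 0.798% as lower (limma). By unadjusted p under 0.05, 3 of 10 genes passed at 0 h and 1 of 10 at 12 h, against 22.5% and 13% of all probes. The median over the 10 genes, Ser585Gly over wild type, was −0.04 at 0 h and −0.11 at 12 h. Fitted values were negative in 6 of 10 genes at 0 h and 9 of 10 at 12 h, against 50.3% and 52.2% of all probes. Both arrays lay above 0 for 4 genes at 0 h, against 26.6% of all probes, and below 0 for 2. At 12 h both lay above 0 for 0 genes, against 26.8% of all probes, and below 0 for 7. The share of all probes with both arrays below 0 was not computed. The 95% intervals of the 10 genes ran from −0.89 to 0.48 at 0 h and from −0.75 to 0.28 at 12 h.

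At 0 h Slc7a5 gave 0.19 and −0.30 on the mutation arrays and was fitted at −0.07 ± 0.10 (adjusted p = 0.695, interval −0.31 to 0.16). At 12 h it gave −0.07 and −0.11 and was fitted at −0.06 ± 0.10 (adjusted p = 0.852, interval −0.30 to 0.17). The arrays disagreed in sign at 0 h and lay just below 0 at 12 h. Slc3a2 gave 0.44 and 0.06 at 0 h and −0.06 and −0.25 at 12 h. Both arrays were above 0 before GM-CSF and below 0 after it, and neither fitted value passed, at 0.21 ± 0.10 (adjusted p = 0.257) and −0.11 ± 0.10 (adjusted p = 0.732). Slc7a1 gave 0.06 and 0.18 at 0 h and −0.51 and −0.27 at 12 h, and Slc38a1 gave 0.28 and 0.11 and then −0.06 and −0.28. These also changed sign between the times on both arrays. The fitted values at 0 h were 0.01 ± 0.14 for Slc7a1 (adjusted p = 0.964) and 0.12 ± 0.10 for Slc38a1 (adjusted p = 0.484). At 12 h they were −0.28 ± 0.14 (adjusted p = 0.462) and −0.10 ± 0.10 (adjusted p = 0.75).

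The largest fitted difference at 0 h was in Slc7a3, at −0.50 ± 0.17 (adjusted p = 0.138), from arrays at −1.05 and −0.19. The arrays agreed in sign but not in size, and without replicate 1 the value was −0.14. Slc1a5 gave −0.10 and −0.33 at 0 h and −0.31 and −0.36 at 12 h. All 4 arrays were below 0, with fitted values of −0.33 ± 0.11 (adjusted p = 0.139) and −0.22 ± 0.11 (adjusted p = 0.479). Slc38a2 gave 0.35 and 0.29 at 0 h, both above 0, and was fitted at 0.25 ± 0.10 (adjusted p = 0.204). At 12 h it gave −0.14 and 0.06. Slc6a9 gave −0.67 and −0.29 at 12 h, the largest fitted difference at that time, at −0.42 ± 0.11 (adjusted p = 0.139), after −0.30 and 0.20 at 0 h. Slc1a4 gave 0.0038 and −0.14 at 0 h and −0.01 and −0.27 at 12 h, and Slc7a11 gave −0.25 and 0.21 and then 0.04 and −0.64. Slc1a4 and Slc7a11 had fitted values of −0.09 and −0.01 at 0 h and −0.11 and −0.31 at 12 h, with adjusted p of 0.583 or more.

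With other processing 3 of these values passed at 0 h with print-tip loess, namely Slc7a3 (−0.36, adjusted p = 0.0424), Slc1a5 (−0.28, 0.0431) and Slc38a2 (0.40, 0.0374). The deposited value table put Slc1a5 (−0.33, adjusted p = 0.0263) and Slc38a2 (0.28, 0.0231) past the threshold at 0 h and Slc7a1 (−0.45, 0.0123) at 12 h. With each side as a random block Slc7a3 (adjusted p = 0.0435) passed at 0 h and Slc6a9 (0.0339) at 12 h. That setting narrowed the SE, from 0.10 to 0.08 for Slc7a5 with time in wild type. It therefore gives no guard against technical repeats within a side.

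Whether Ser585Gly cells responded to GM-CSF differently was tested by the interaction of mutation and time. None of the 10 genes passed, where 0.0551% of probes did, 0.0275% as higher and 0.0275% as lower (limma), and 2 of 10 had an unadjusted p under 0.05, against 7.02% of all probes. The difference of responses, Ser585Gly minus wild type, was negative in 7 of 10 genes, with a median of −0.22, and 48.6% of all probes were negative. It was −0.32 ± 0.13 for Slc6a9 (adjusted p = 0.706), −0.30 ± 0.16 for Slc7a1 (adjusted p = 0.756) and −0.22 ± 0.12 for Slc38a1 (adjusted p = 0.756). Slc7a5 had 0.01 ± 0.12 (adjusted p = 0.983), with an interval of −0.26 to 0.28. Slc7a3 went the other way, at 0.38 ± 0.20 (adjusted p = 0.756). The 95% intervals ran from −0.81 to 0.83 over the 10 genes.

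Of 45 other amino acid carriers listed, 24 were measured, and in wild type 0 rose and 1 fell (4.17%, against 9.51% of all probes). That gene was Ctns, the lysosomal cystine exporter, at −0.37 ± 0.09 (adjusted p = 0.0366), which passed in 7 of 18 alternatives. In Ser585Gly 1 rose and 1 fell (8.33%, against 10.5% of all probes), with Slc38a3, a glutamine carrier best known from liver, at 0.56 ± 0.15 (adjusted p = 0.0489, kept in 8 of 18 alternatives) and Ctns at −0.67 ± 0.09 (adjusted p = 0.00337). The Ctns call was lost without replicate 1 of 12 h over 0 h in Ser585Gly (adjusted p = 0.0633). The median of the 24 was 0.01 in wild type and 0.04 in Ser585Gly. Their probes lay at brightness percentiles of 5.68 to 84.1. Most were less bright than those of the transporters other than Slc7a11, at 71.4 to 98.1. A change in the weakest of them may not be detectable here. With the mutation at 0 h 1 of the 24 passed, as lower (4.17%, against 4.06% of all probes). That gene was Slc6a6, the taurine transporter, at −0.69 ± 0.13 (adjusted p = 0.0281). It did not pass without replicate 1 or 2 of that side (adjusted p = 0.084 and 0.0855), replicate 2 of the mutation side at 12 h (0.0724), replicate 2 of the wild-type time side (0.0838) or replicate 1 of the Ser585Gly time side (0.0853).

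The ATF4 pathway and its known targets in amino acid supply held many genes that rose. Of 34 listed genes 31 were measured, and 18 rose and 2 fell in wild type (64.5%, against 9.51% of all probes), with a median of 0.53. In Ser585Gly 12 rose and 3 fell (48.4%, against 10.5% of all probes), with a median of 0.35. This list was chosen with earlier results of these arrays known, so the counts are not independent evidence of direction. Atf4 itself was at 1.13 in wild type (adjusted p = 0.00117) and 1.10 in Ser585Gly (adjusted p = 0.00139). The largest rises in wild type were in Trib3, a pseudokinase that feeds back on ATF4, at 2.0 ± 0.17 (adjusted p = 0.000435), in Chac1, which breaks down glutathione, at 1.47 ± 0.13 (adjusted p = 0.000582), and in the serine synthesis enzyme Psat1 at 1.38 ± 0.11 (adjusted p = 0.00034). In Ser585Gly they were in the serine synthesis enzymes Psph, at 1.34 ± 0.12 (adjusted p = 0.000655), and Phgdh, at 1.21 ± 0.11 (adjusted p = 0.000631), with Chac1 at 1.27 ± 0.13 (adjusted p = 0.0012) between them. Each of these genes rose past the threshold in both populations. Psph was at 1.37 and Phgdh at 1.33 in wild type, and Trib3 and Psat1 were each at 0.97 in Ser585Gly. For the difference of responses 0 of 31 genes of the list passed.

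Some genes of that list fell. Eif2ak3, the kinase PERK that acts above ATF4 in the endoplasmic reticulum, was at −0.68 ± 0.09 in wild type (adjusted p = 0.0042) and −0.72 ± 0.09 in Ser585Gly (adjusted p = 0.00318). Ddit4, an inhibitor of mTORC1, was at −0.47 ± 0.10 (adjusted p = 0.0244, kept in 9 of 18 alternatives) and −0.97 ± 0.10 (adjusted p = 0.00128). Ddit3, which encodes the stress factor CHOP, was at 0.43 in wild type (adjusted p = 0.0229) and −0.36 ± 0.09 in Ser585Gly (adjusted p = 0.0439, kept in 7 of 18 alternatives), and the difference of −0.79 did not pass (adjusted p = 0.0697). Without replicate 1 of 12 h over 0 h in Ser585Gly the list had 5 higher and 1 lower in Ser585Gly, and Eif2ak3 lost its call there (adjusted p = 0.0731). Without replicate 1 of 12 h over 0 h in wild type it had 14 higher and 0 lower in wild type, and Eif2ak3 was at an adjusted p of 0.0528.

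With the mutation, 3 genes of the ATF4 list were higher and 1 was lower in Ser585Gly at 0 h (12.9%, against 4.06% of all probes), and 0 were higher and 2 lower at 12 h (6.45%, against 1.72%). Ddit4 (0.82 ± 0.10, adjusted p = 0.00647), Ddit3 (0.67 ± 0.09, 0.00874) and Herpud1, of endoplasmic reticulum protein quality control (0.53 ± 0.12, 0.0447), were the higher ones, and none of the 3 passed without replicate 2 of the 0 h side (adjusted p = 0.057, 0.069 and 0.175). Herpud1 was kept in 6 of 18 alternatives. Mthfd2, a mitochondrial folate enzyme, was lower at 0 h (−0.54 ± 0.12, adjusted p = 0.0484) and at 12 h (−0.73 ± 0.12, 0.0252), and Eif4ebp1, a translation repressor that mTORC1 switches off, was lower at 12 h (−0.56 ± 0.11, 0.0447). Each of these lower calls was lost without either array of its own side, with adjusted p of 0.0585 and 0.143 for Mthfd2 at 0 h, 0.268 and 0.299 for Mthfd2 at 12 h, and 0.273 and 0.445 for Eif4ebp1. Over 18 alternatives Mthfd2 was kept in 6 at 0 h and 11 at 12 h, and Eif4ebp1 in 7. The interaction was negative in 25 of 31 genes of the list, against 48.6% of all probes.

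Of 34 listed genes that sense amino acids for mTORC1, 22 were measured, and 1 rose and 2 fell in wild type while 0 rose and 3 fell in Ser585Gly. That is 13.6% of the list in each comparison, near the 9.51% and 10.5% of all probes. With the mutation at 0 h 4.55% of the list passed, against 4.06% of all probes. Sesn1 and Sesn3 encode sestrins, which restrain mTORC1, and Sesn1 is known as a p53 and FoxO target. Sesn1 fell by 1.13 ± 0.11 in wild type (adjusted p = 0.00085) and was at −0.42 ± 0.11 in Ser585Gly (adjusted p = 0.0461, kept in 7 of 18 alternatives). The difference of 0.71 between these responses did not pass (adjusted p = 0.249). Sesn3 was at −0.85 ± 0.12 (adjusted p = 0.00523) and −0.88 ± 0.12 (adjusted p = 0.00411), and lost the call without replicate 1 of the time side of the population concerned (adjusted p = 0.0636 and 0.0861). Sesn2, another sestrin, counted in the ATF4 list, went the other way. It rose by 0.75 in wild type (adjusted p = 0.00507) and was at 0.37 in Ser585Gly, where it did not pass (adjusted p = 0.0681). Rptor, the mTORC1 scaffold, was at 0.49 ± 0.11 in wild type (adjusted p = 0.0247, kept in 8 of 18 alternatives), Lamtor1, a lysosomal anchor, at −0.41 ± 0.09 in Ser585Gly (adjusted p = 0.0258, 9 of 18), and Lamtor3, of the same anchor, at 0.46 ± 0.09 with the mutation at 0 h (adjusted p = 0.0358, 6 of 18).

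**Figure D4:**
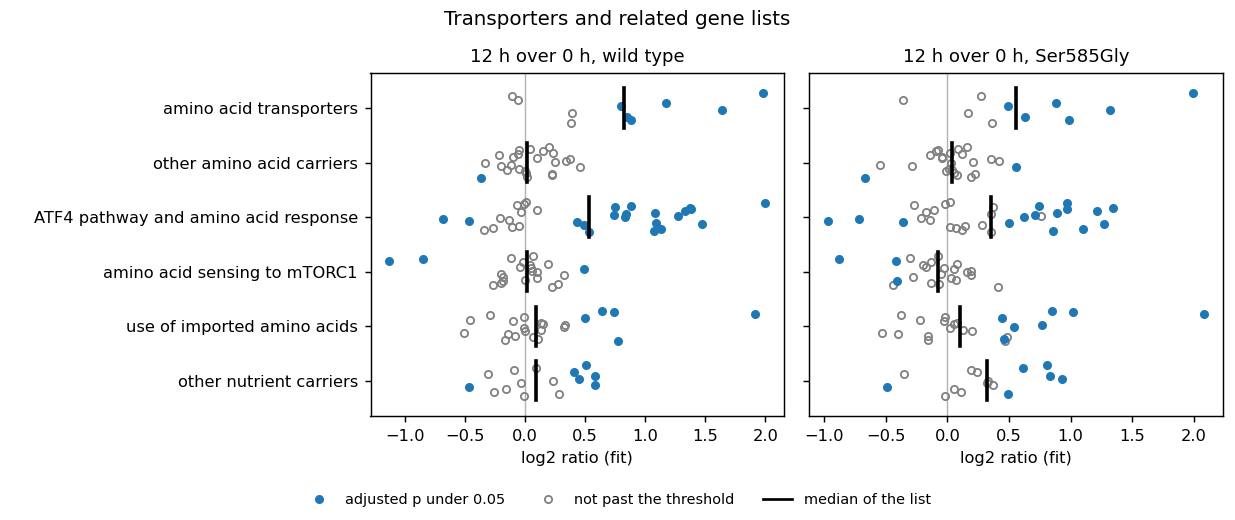
Fitted log2 ratio of 12 h over 0 h (x axis) for each measured gene of the 10 transporters and of 5 related lists, in wild type and Ser585Gly; blue points passed the threshold, open points did not, and black bars are list medians. The transporters (medians 0.83 and 0.56) and the ATF4 list (0.53 and 0.35) sit to the right. The other amino acid carriers, most of them on less bright probes than the transporters, centre on 0.01 and 0.04.

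Promoter sequence was available for 6 of the 10 genes, in 9 windows of 250 bases before to 50 bases after an annotated start (RefSeq, GRCm38.p6). Slc7a5, Slc7a3, Slc1a5 and Slc38a1 had no entry in the table used. The windows were searched on both strands for TGATGNAA, a short form of the C/EBP-ATF response element that ATF4 dimers bind, for TTCNNNGAA, the palindrome that STAT proteins bind, and for CACGTG, the E-box that Myc and MAX bind, where N is any base. TGATGNAA was found in the windows of Slc7a11 and Slc1a4, and 3.97% of 32851 mouse promoter windows hold it. In Slc7a11 it stood at positions −66 to −59 on the plus strand of the gene and again at −47 to −40 on the opposite strand, facing each other, and in Slc1a4 at −4 to 4 on the opposite strand. TTCNNNGAA was found in Slc7a11 at −183 to −175 and in the downstream window of Slc7a1 at −146 to −138, and 8.3% of windows hold it. CACGTG was in 0 of the 9 windows, against 7.15% of all, and the motifs found did not overlap. A match describes letters only, and the window of Slc3a2, which rose most among the genes with an entry, held none of the 3. Slc7a11 and Slc1a4, with TGATGNAA, did not pass with time, and Slc7a1 was among the genes that rose. The probe of Slc7a11 was just above the limit set by wells named empty. Slc1a4 was above 0 on all 4 time arrays (adjusted p = 0.0532 in wild type and 0.0605 in Ser585Gly, limma). Bases outside these windows were not searched, and a role of ATF4 in these genes was not tested. The 4 stretches below run 5′ to 3′ on the gene's strand from 200 bases before to 5 bases after the start, with matches in capitals. They are shown to set a gene that rose with no match and a gene that rose with a match beside the genes that did not pass and hold TGATGNAA. Their positions are chr19:8713893-8714097 for Slc3a2, chr5:148392811-148393015 for Slc7a1, chr3:50443609-50443813 for Slc7a11 and chr11:20332709-20332913 for Slc1a4, each on the minus strand.
Slc3a2: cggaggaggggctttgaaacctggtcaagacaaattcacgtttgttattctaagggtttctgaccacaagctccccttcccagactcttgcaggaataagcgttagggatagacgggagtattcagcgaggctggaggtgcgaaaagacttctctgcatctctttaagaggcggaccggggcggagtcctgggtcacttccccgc
Slc7a1: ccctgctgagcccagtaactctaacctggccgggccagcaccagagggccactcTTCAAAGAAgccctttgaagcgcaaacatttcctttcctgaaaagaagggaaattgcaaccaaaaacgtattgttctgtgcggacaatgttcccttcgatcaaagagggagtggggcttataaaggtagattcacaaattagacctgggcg
Slc7a11: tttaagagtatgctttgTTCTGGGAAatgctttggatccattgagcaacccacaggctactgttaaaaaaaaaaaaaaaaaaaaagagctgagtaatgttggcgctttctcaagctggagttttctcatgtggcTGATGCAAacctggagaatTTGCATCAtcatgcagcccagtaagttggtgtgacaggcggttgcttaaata
Slc1a4: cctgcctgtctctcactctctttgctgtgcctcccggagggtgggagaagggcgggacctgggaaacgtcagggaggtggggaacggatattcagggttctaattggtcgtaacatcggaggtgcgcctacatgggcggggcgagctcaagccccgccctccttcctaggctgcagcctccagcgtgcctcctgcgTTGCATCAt

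The genes whose 8 ratios lay nearest to those of Slc7a5 were looked up among 15096 named genes by Euclidean distance in log2 units. Nearest was Odc1, the enzyme that starts polyamine synthesis from ornithine, at 0.33. It gave 2.0 and 1.79 on the wild-type time arrays, 2.18 and 2.01 on the Ser585Gly time arrays, and 0.21 and −0.44 on the mutation arrays at 0 h. At 12 h it gave 0.14 and −0.09 on the mutation arrays. After it came Il2ra, the interleukin-2 receptor alpha chain, at 0.63, Thbd, which encodes thrombomodulin, at 0.84, Itih5, which encodes an inter-alpha-trypsin inhibitor heavy chain, at 0.93, and Acsl3, which activates long-chain fatty acids, at 0.94. Slc3a2 was at 1.19, rank 12 of 15096. Of the other transporters Slc7a1 (rank 96), Slc1a5 (107) and Slc38a1 (207) lay nearer than Slc6a9 (424), Slc1a4 (989) and Slc38a2 (1660), and Slc7a3 (6586) and Slc7a11 (12903) lay far off. The measure is over 8 arrays that share RNA and follows the size of the response.

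**Figure D5:**
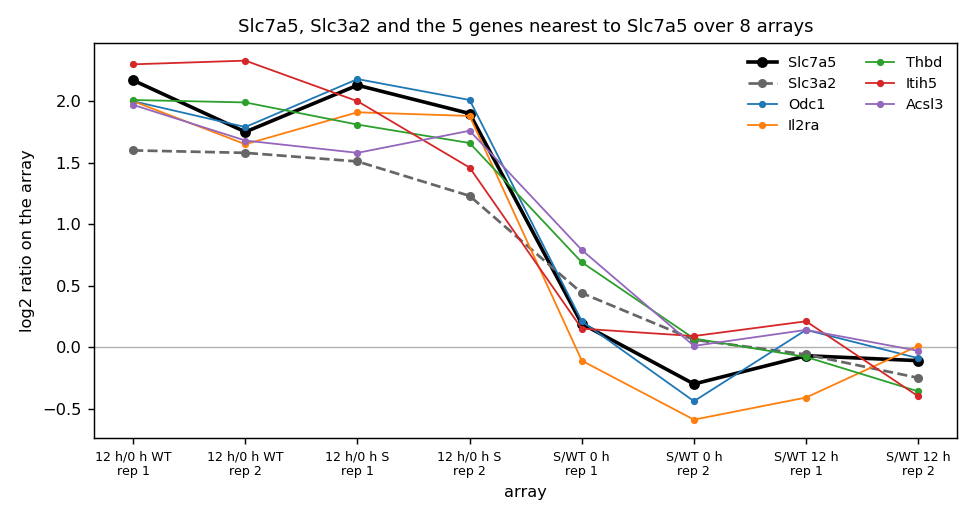
Log2 ratio (y axis) on each of the 8 arrays (x axis, 12 h over 0 h in wild type and Ser585Gly, then Ser585Gly over wild type at 0 h and 12 h) for Slc7a5 (black), Slc3a2 (grey, dashed) and the 5 genes nearest to Slc7a5. All lie at or above 1.23 on the 4 time arrays and between −0.59 and 0.79 on the mutation arrays.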

How the data were processed

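RNA of CTL-EN cells was labelled with Cy5 and Cy3 and hybridised to 8 spotted oligonucleotide arrays. The deposited scanner values of each array are intensity units, per the file headers, with foreground and local background for each dye; the scanning software's settings were not given in the sources used here. Log2 ratios of Cy5 over Cy3 fill the value table the authors deposited, and the submitters' processing notes name limma without steps. Scanner files carry no probe names. Probes were placed on spots from their number and print order, and the placed spot was the nearest by the 8 deposited ratios for 90.3% of 21796 probes (0% after shuffling) and for 94.1% of 1012 controls with a coded position. Gene names follow a print order with 24 pins rather than the deposited order. Over 1022 pairs of probes of 1 gene the wild-type time ratios correlated at 0.401 in this order and −0.0145 in the deposited order, and 244 wells named empty had a median brightness percentile of 1.34 and 47.5. All names rest on that order.

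Background was corrected by normexp (offset 50) and arrays were normalised by loess (span 0.3, control spots at weight 0). A linear model over the 8 arrays (limma 3.58.1, R 4.3.3, statmod 1.5.0 for the random block) estimated dye, time, mutation and the interaction of the last pair (4 residual and 4.35 prior degrees of freedom), two-sided, with Benjamini-Hochberg adjustment over 21796 probes and a threshold of 0.05. On simulated arrays 97% of 200 probes changed by 1 log2 unit with time in wild type were recovered, with 5.37% of calls false, out of 21796 probes. That covers 1 size in 1 comparison, so it does not show how well smaller changes, or changes with the mutation, would be detected. A gene with several probes was read on its brightest. A probe was called dim under the 95th percentile of empty wells. The number of arrays limits the precision. Named genes were the 10 transporters, up to 3 genes per list, comparison and direction with the largest change past the threshold, and the 5 genes nearest to Slc7a5. Atf4 and Sesn2 were added after their values were seen. So were Ddit3, Txnrd1, Slc29a1, Psph and Phgdh in wild type, and Trib3 and Psat1 in Ser585Gly. The transporters, lists and tests were chosen with earlier results of these data known. Alternatives were print-tip loess, median centring, no background correction, the deposited table, averaged dye swaps, a random block, no dye term, a trended prior, direct arrays alone, a filter on dim probes and leaving out each array.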

Additional observations from a re-analysis of the deposited data

How the results depend on the processing

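Slc7a5, Slc3a2, Slc7a1, Slc1a5 and Slc38a1 stayed past the threshold in wild type under all 18 alternatives, and Slc7a5 and Slc3a2 did in Ser585Gly. Leaving out 1 array at a time gave 5 to 8 transporters called with time in wild type, 2 to 7 in Ser585Gly and 0 to 0 for the mutation and the interaction. Other settings gave 6 to 8 in wild type and 5 to 8 in Ser585Gly. With the mutation, print-tip loess called 3 transporters at 0 h, use of the deposited values 2 at 0 h and 1 at 12 h, and a random block for each side (correlation 0.326) 1 at 0 h and 1 at 12 h.

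Counts over all probes moved more. For time in wild type (2072 probes) they were 4091 with print-tip loess, 4196 with the deposited table, 1070 with dye swaps averaged, 4193 with the random block, 891 with direct arrays alone, and 413 to 3317 without 1 array. For time in Ser585Gly (2287) they were 4281, 4256, 1342, 4320, 1155 and 269 to 3439 in that order. For the mutation at 0 h (886) they were 2042, 2564, 276, 3383, 227 and 110 to 637, with 518 under median centring and 509 with no dye term. For the mutation at 12 h (374) they were 995, 2211, 152, 1132, 159 and 68 to 627. For the interaction (12) they were 49 with print-tip loess, 88 with the deposited table, 0 with dye swaps averaged, 35 with the random block, 5 with median centring, 20 with no background correction, 6 with no dye term, 21 with a trended prior, and 0 to 5 without 1 array. Median centring moved the share of calls that were higher from 55% to 65.9% for time in Ser585Gly, from 50.8% to 40.9% for the mutation at 0 h and from 50% to 80% for the interaction. The cause of these shifts was not tested. Direct arrays and averaged pairs use fewer arrays. The random block gave more calls than the main fit in every comparison, and it gives no guard against technical repeats within a side.

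No value past the threshold changed sign. For time in wild type Slc7a11 was at 0.06 with no background correction and 0.05 with the deposited table, and Slc7a3 at 0.03 with the deposited table and 0.01 with direct arrays alone; without 1 array they ran from −0.33 to 0.20 and from −0.24 to 0.01. For the mutation at 0 h Slc7a1 was at −0.11 with print-tip loess and with the deposited table and at −0.00028 with median centring (−0.08 to 0.10 without 1 array), Slc7a11 at 0.07 with print-tip loess and 0.03 with the deposited table (−0.12 to 0.10 without 1 array), and Slc38a1 at −0.03 and −0.0021. At 12 h direct arrays alone put Slc7a3 at 0.01 and Slc38a2 at −0.04, and without 1 array Slc7a3 ran from −0.34 to 0.01, Slc38a2 from −0.0034 to 0.14, Slc7a5 from −0.14 to 0.05 and Slc7a11 from −0.63 to 0.01. In the interaction Slc1a4 was at 0.03 with print-tip loess (−0.10 to 0.04 without 1 array), and Slc7a5 ran from −0.04 to 0.08. Arrays could not be paired across sides by replicate, because the replicate numbers only name the dye orientation. The interaction has no direct arrays, so that alternative was not run for it. Signal close to that of empty wells limits what can be said of Slc7a11.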

Other observations

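Genes that use imported amino acids and carriers of other nutrients were measured beside the transporters. Both lists were chosen with earlier results of these data known, so their counts are not independent evidence. Of 22 measured genes that use amino acids, 5 rose and 0 fell in wild type (22.7%, against 9.51% of all probes) and 7 rose and 0 fell in Ser585Gly (31.8%, against 10.5%), with medians of 0.09 and 0.11. Odc1, which makes putrescine from ornithine, rose by 1.91 ± 0.11 in wild type (adjusted p = 0.00012) and by 2.08 ± 0.11 in Ser585Gly (adjusted p = 0.000148; limma), and passed in all 18 alternatives in both. Ahcy, which clears S-adenosylhomocysteine, was at 0.77 ± 0.14 in wild type (adjusted p = 0.0119, and 0.123 without replicate 2 of 12 h over 0 h in wild type). Shmt1, the cytosolic enzyme that links serine and glycine, was at 0.74 ± 0.17 in wild type (adjusted p = 0.0304, kept in 11 of 18 alternatives) and 1.02 ± 0.17 in Ser585Gly (adjusted p = 0.0077). Txnrd1, a thioredoxin reductase, was at 0.64 in wild type (adjusted p = 0.00834) and 0.85 ± 0.10 in Ser585Gly (adjusted p = 0.00233). Shmt1 and Txnrd1 lost the call in Ser585Gly without replicate 1 of its time side (adjusted p = 0.0961 and 0.0614). With the mutation, Dbt, of branched-chain amino acid breakdown, was at −0.61 ± 0.10 at 0 h (adjusted p = 0.0165) and −0.61 ± 0.10 at 12 h (adjusted p = 0.0215), and Bckdk, a kinase that restrains that breakdown, was at −0.67 ± 0.11 at 0 h (adjusted p = 0.0187). Dbt was kept in 13 of 18 alternatives at 0 h and 9 of 18 at 12 h, and Bckdk in 10 of 18.

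Of 15 measured carriers of other nutrients, 5 rose and 1 fell in each time comparison (40%, against 9.51% of all probes in wild type and 10.5% in Ser585Gly), with medians of 0.09 in wild type and 0.32 in Ser585Gly. The nucleoside carriers Slc29a1 (0.93 ± 0.12, adjusted p = 0.0025) and Slc29a2 (0.83 ± 0.12, 0.00513) and the transferrin receptor Tfrc (0.81 ± 0.09, 0.00203) rose in Ser585Gly, and Slc29a2 (0.58 ± 0.12, 0.0234), the phosphate carrier Slc20a1 (0.58 ± 0.11, 0.0159) and Tfrc (0.51 ± 0.09, 0.0136) rose in wild type. Slc29a2 and Tfrc did not pass in Ser585Gly without replicate 1 of its time side (adjusted p = 0.0961 and 0.0514), and the 3 wild-type rises were kept in 13, 14 and 14 of 18 alternatives. Slc29a1 also passed in wild type, at 0.45 (adjusted p = 0.0475). Slc19a2, a thiamine carrier, was at −0.47 ± 0.10 in wild type (adjusted p = 0.0254) and −0.49 ± 0.10 in Ser585Gly (adjusted p = 0.0198), kept in 8 and 11 of 18. In Ser585Gly against wild type Tfrc was higher at 0 h (0.46 ± 0.09, adjusted p = 0.0375, kept in 6 of 18) and at 12 h (0.76 ± 0.09, 0.00713, kept in 15 of 18), and Slc30a1, a zinc exporter (−0.99 ± 0.18, 0.0247, kept in 12 of 18), and Slc19a1, a folate carrier (−0.51 ± 0.09, 0.0236, kept in 7 of 18), were lower at 0 h.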
